A study of Mus musculus with 12 samples.

Results

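The 10 immediate early genes of the AP-1 and Egr groups (Fos, Fosb, Jun, Junb, Atf3, Egr1, Egr2, Egr3, Ier2 and Ier3) were followed on 12 arrays of Prkch-/-Apoe-/- and Apoe-/- mice. Every probe set annotated to 1 of these genes and to no other gene was taken, which gave 10 of 35557 probe sets for macrophages and liver, and 12 of 22690 for the aorta, which was run on another array type. On that type Jun and Egr2 had a pair of probe sets each. All 10 genes were present on both arrays, among 19938 and 12394 genes with a symbol of their own. Prkch encodes protein kinase C eta, and loss of Apoe raises blood lipids, so the Apoe-/- controls are themselves prone to atherosclerosis. All mice were of the C57BL/6J strain, and no group carried intact Apoe.

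Prkch-/-Apoe-/- and Apoe-/- macrophages were thioglycolate-elicited cells of the peritoneal cavity, without stimulation, from females on a regular diet aged 18, 17 and 27 weeks for replicates 1, 2 and 3 of each genotype. Prkch-/-Apoe-/- and Apoe-/- livers came from males aged 20 weeks that had 12 weeks of high-fat diet and were re-fed, with 2 arrays per genotype. Prkch-/-Apoe-/- and Apoe-/- aortas came from fed males of the same age and diet, with 1 array per genotype that held RNA pooled from 4 mice. Aorta and liver were taken after saline perfusion under pentobarbital anaesthesia. Which part of Prkch was removed is not stated in the labels, and the time between elicitation, handling and lysis of the macrophages is not given in the sources used here.

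Immediate early genes are transcribed within minutes of a stimulus, without the need for new protein, when kinase cascades activate factors that are already bound or present in the cell. Fos and Jun proteins pair through leucine zippers to form AP-1, Egr proteins bind DNA through zinc fingers, and several of these genes also respond to the dissection and digestion of tissue. Protein kinase C is a classical upstream activator of this response, through MAP kinases, serum response factor (SRF) and its ternary complex factors. Phorbol esters, which activate protein kinase C, gave AP-1 binding sites their other name of phorbol ester response elements.

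Promoter windows from the RefSeq table (GRCm38.p6, 250 bases before to 50 after an annotated start) were available for 7 of the 10 genes in 11 windows. Egr1, Egr3 and Ier2 were not listed. The Fos window is printed as that of the gene which gives the family its name, and those of Egr2, Atf3 and Ier3 because these genes varied most between the macrophage arrays described next. Each runs 5′ to 3′ on the strand of the gene. Capitals mark a CArG box (the SRF site, CC, then 6 bases of A or T, then GG), TGACG (the core of the site for CREB and ATF proteins) and TATAAA (the TATA box), each on either strand; none of the printed motifs overlap.
Fos, chr12:85473640-85473939, plus strand: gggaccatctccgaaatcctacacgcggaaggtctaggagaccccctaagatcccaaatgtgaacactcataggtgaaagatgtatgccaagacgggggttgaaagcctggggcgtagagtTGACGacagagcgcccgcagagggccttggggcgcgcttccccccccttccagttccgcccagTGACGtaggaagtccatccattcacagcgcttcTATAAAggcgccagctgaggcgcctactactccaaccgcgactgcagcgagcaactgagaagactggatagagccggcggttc
Egr2, chr10:67537619-67537918, plus strand: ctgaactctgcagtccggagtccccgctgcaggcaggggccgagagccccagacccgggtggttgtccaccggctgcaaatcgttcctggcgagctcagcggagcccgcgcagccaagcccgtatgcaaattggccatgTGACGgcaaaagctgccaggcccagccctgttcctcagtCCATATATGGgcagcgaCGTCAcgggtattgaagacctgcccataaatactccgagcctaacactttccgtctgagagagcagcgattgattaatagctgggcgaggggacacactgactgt
Atf3, chr1:191183284-191183583, minus strand: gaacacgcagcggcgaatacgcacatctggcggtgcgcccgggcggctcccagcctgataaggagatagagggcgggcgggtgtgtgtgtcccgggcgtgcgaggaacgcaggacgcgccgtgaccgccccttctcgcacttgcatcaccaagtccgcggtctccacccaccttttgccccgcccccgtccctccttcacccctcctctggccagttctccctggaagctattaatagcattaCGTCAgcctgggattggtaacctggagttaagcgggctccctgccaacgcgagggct
Ier3, chr17:35821463-35821762, plus strand: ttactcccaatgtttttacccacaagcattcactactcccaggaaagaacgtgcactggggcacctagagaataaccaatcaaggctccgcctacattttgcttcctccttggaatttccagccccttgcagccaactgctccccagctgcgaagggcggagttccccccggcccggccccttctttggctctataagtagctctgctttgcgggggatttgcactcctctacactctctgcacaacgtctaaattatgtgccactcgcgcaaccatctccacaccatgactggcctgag
Positions are those of the first printed base of a motif, counted from the start, with bases before it negative. In the Fos window TGACG was at -129 and -66 and TATAAA at -33. In the Egr2 window a CArG box was at -72, with TGACG at -111 on the strand of the gene and at -55 on the other strand. The Atf3 window held TGACG at -7, on the other strand. The Ier3 window held none of the 3 motifs. Over all 11 windows a CArG box was found for Egr2 alone, against 1.63% of 32851 windows in the table. TGACG was found for Fos, Fosb, Junb, Egr2 and Atf3 (20.8% of all windows), and TATAAA for Fos and Junb (13.6%). The AP-1 site TGANTCA, searched on both strands, was in none of the members' windows and in 7.81% of all. CCGGAA, a core of the site for ternary complex factors, was found for Egr2 (14.9% of all windows), the Egr site GCGNGGGCG for Fosb (5.55%), and an NF-kB site for Fos, Fosb and Egr2 (5.81%), each searched on both strands. A gene was counted where any of its windows matched, while the shares are per window, so these are unlike units. Egr2 had several of the 11 windows, some of them nearly the same sequence, and thus more places for a match. Its CCGGAA and NF-kB matches lay in windows that are not printed. Such a match describes letters within 300 bases and no binding was measured. A window without a match lacks only these letters.

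The macrophage arrays fell into 2 sets by identical values, from which different processing is inferred here and is not stated in the labels. Prkch-/-Apoe-/- replicates 2 and 3 and Apoe-/- replicate 3 shared 16075 to 18000 identical deposited values per pair, while pairs from this set and the remaining 3 macrophage arrays shared at most 3. Prkch-/-Apoe-/- replicate 1 with Apoe-/- replicates 1 and 2 is called batch 1 here, and the 3 arrays with many ties batch 2. Prkch-/-Apoe-/- replicate 2 stood apart from the other 5 macrophage arrays, at 36.8 on a first principal component (56.5% of the variance) where the others lay between -18.8 and 3.40. In liver, Prkch-/-Apoe-/- replicate 1 lay at 23.6 and the other 3 arrays between -9.70 and -5.59 on a first component with 48.3% of the variance. The brighter Prkch probe set read 9.36, 8.79 and 8.87 log2 units in Prkch-/-Apoe-/- macrophages, against 9.94, 9.86 and 9.31 in Apoe-/- macrophages, and 5.93 and 5.65 in Prkch-/-Apoe-/- livers, against 6.57 and 6.87 in Apoe-/- livers. Prkch-/-Apoe-/- macrophage replicate 1 thus read slightly above Apoe-/- macrophage replicate 3, an array of the other batch. Within each batch every Prkch-/-Apoe-/- macrophage array read below every Apoe-/- array on this probe set. On the dimmer Prkch probe set the livers overlapped, at 3.94 and 4.21 in Prkch-/-Apoe-/- livers and 4.08 and 4.04 in Apoe-/- livers, and macrophages read 6.85, 6.62 and 6.62 in Prkch-/-Apoe-/- and 7.06, 7.14 and 6.85 in Apoe-/- cells. In the aorta the Prkch signal was 9.94 in the Prkch-/-Apoe-/- pool and 17.2 in the Apoe-/- pool, on 1 array each. Both signals are dim, below the 32.6 used later as a filter. Markers of the labelled tissue were above the median of all probe sets for 8 of 8 macrophage markers in macrophages, 6 of 6 hepatocyte markers in liver and 6 of 6 smooth muscle markers in aorta. So were 5 of 5 B cell and 5 of 6 fibroblast markers in macrophages. The same held for 6 of 6 endothelium markers in liver and 7 of 7 skeletal muscle markers in aorta, so these counts do not measure purity.

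The macrophage comparison asks whether the level of these genes differed with loss of Prkch, here in elicited cells without added stimulation. None of the 10 passed the test, and on no gene did the Prkch-/-Apoe-/- arrays all lie on one side of the Apoe-/- arrays. For Jun, Junb, Egr1 and Ier2 they could not, because replicate 3 of both genotypes held the same value. The widest differences between genotypes were in Egr2, Ier3, Atf3 and Fos, and each of the first 3 changed sign without 1 array, Prkch-/-Apoe-/- replicate 2. The Ier3 difference was also small, at 0.05, in a fit that held the batch as a block with all arrays kept. Since each array reads RNA from many cells, fewer cells of a type and less RNA per cell cannot be told apart. Values are the deposited log2 probe set levels, and differences are Prkch-/-Apoe-/- minus Apoe-/- with the SE of limma's fit.

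Fos, the bZIP protein that pairs with Jun proteins, read 9.77, 9.55 and 9.84 in Prkch-/-Apoe-/- macrophages and 9.75, 9.89 and 10.14 in Apoe-/- macrophages. The genotypes overlapped, with the lowest value on Prkch-/-Apoe-/- replicate 2 and the highest on Apoe-/- replicate 3. The difference was -0.21 ± 0.13 (SE, n = 3 and 3; limma, Benjamini-Hochberg adjusted p = 1.00), -0.05 within batch 1 and -0.45 within batch 2. It was -0.10 without Apoe-/- replicate 3 and -0.13 without Prkch-/-Apoe-/- replicate 2. Fosb, a close relative of Fos, lay between 6.82 and 7.19 in Prkch-/-Apoe-/- macrophages and between 6.99 and 7.05 in Apoe-/- macrophages, a difference of 0.03 ± 0.11. Within batches 1 and 2 the Fosb difference was 0.12 and -0.04.

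Jun, the main partner of Fos in AP-1, read 11.37, 10.77 and 10.85 in Prkch-/-Apoe-/- macrophages and 11.15, 11.39 and 10.85 in Apoe-/- macrophages. The 3 arrays of batch 2 were the low ones in both genotypes, and Prkch-/-Apoe-/- replicate 3 and Apoe-/- replicate 3 carried the same value to the last deposited digit. The Jun difference was -0.13 ± 0.20 over all arrays, 0.10 within batch 1, -0.04 within batch 2, and 0.03 in a fit that held the batch as a block. Junb, a weaker activator that can restrain Jun, read 8.21, 8.16 and 8.16 in Prkch-/-Apoe-/- macrophages and 8.09, 7.80 and 8.16 in Apoe-/- macrophages. Its value was identical on all 3 arrays of batch 2, so its difference of 0.16 ± 0.11 came from batch 1 (0.27) with 0.00 in batch 2. It rested on the low Apoe-/- replicate 2, without which it was 0.05. Egr1 and Ier2 were identical between Prkch-/-Apoe-/- replicate 3 and Apoe-/- replicate 3 too, so 4 of the 10 genes had at least 2 equal values in batch 2, where 66.1% of all genes tested did.

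Atf3, a stress-induced bZIP factor known to restrain inflammatory genes in macrophages, read 12.61, 11.56 and 12.49 in Prkch-/-Apoe-/- macrophages and 12.49, 12.44 and 12.44 in Apoe-/- macrophages. The 5 arrays other than Prkch-/-Apoe-/- replicate 2 lay within a narrow range, and that array lay 0.89 below the next. The Atf3 difference was -0.24 ± 0.27, with 0.15 within batch 1 and -0.42 within batch 2 and -0.14 in the fit that blocks on batch, and it was 0.09 without Prkch-/-Apoe-/- replicate 2.

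Egr1, the zinc finger factor for which the group is named, read 7.90, 7.65 and 7.64 in Prkch-/-Apoe-/- macrophages and 8.01, 7.52 and 7.64 in Apoe-/- macrophages. The genotypes spanned nearly the same range, and the difference was 0.00 ± 0.15 (95% interval -0.35 to 0.36), with 0.13 within batch 1 and 0.00 within batch 2. Egr2, a relative of Egr1 that marks macrophages treated with interleukin-4 and is needed for myelin formation in nerve, read 10.74, 8.52 and 10.32 in Prkch-/-Apoe-/- macrophages and 10.79, 10.09 and 10.20 in Apoe-/- macrophages. Prkch-/-Apoe-/- replicate 2 lay 1.56 below the lowest of the other 5 arrays, a gap to the next array larger than that of 99.7% of genes tested. The Egr2 difference of -0.50 ± 0.56 had a 95% interval from -1.83 to 0.84. It was 0.30 within batch 1, -0.78 within batch 2, -0.24 with the batch as a block and 0.17 without that array. Egr3 varied little, between 7.67 and 7.82 in Prkch-/-Apoe-/- macrophages and between 7.62 and 7.73 in Apoe-/- macrophages, and differed by 0.05 ± 0.08, with 0.01 and 0.04 within batches 1 and 2 and 0.01 without Prkch-/-Apoe-/- replicate 2.

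Ier2, a small nuclear protein of the immediate early response, lay between 8.46 and 8.58 in Prkch-/-Apoe-/- macrophages and between 8.45 and 8.71 in Apoe-/- macrophages. The difference was -0.04 ± 0.10, with -0.12 within batch 1 and 0.04 within batch 2. Ier3, a stress-induced regulator of cell survival, read 7.72, 9.33 and 8.41 in Prkch-/-Apoe-/- macrophages and 7.75, 7.97 and 8.64 in Apoe-/- macrophages. Here Prkch-/-Apoe-/- replicate 2 was the highest array, 0.69 above the next, and Prkch-/-Apoe-/- replicate 1 the lowest. All arrays of batch 2 read above all arrays of batch 1. The Ier3 difference was 0.37 ± 0.42 (95% interval -0.64 to 1.38), -0.13 within batch 1, 0.23 within batch 2, 0.05 in the fit that blocks on batch, and -0.05 without Prkch-/-Apoe-/- replicate 2.

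**Figure D1:**
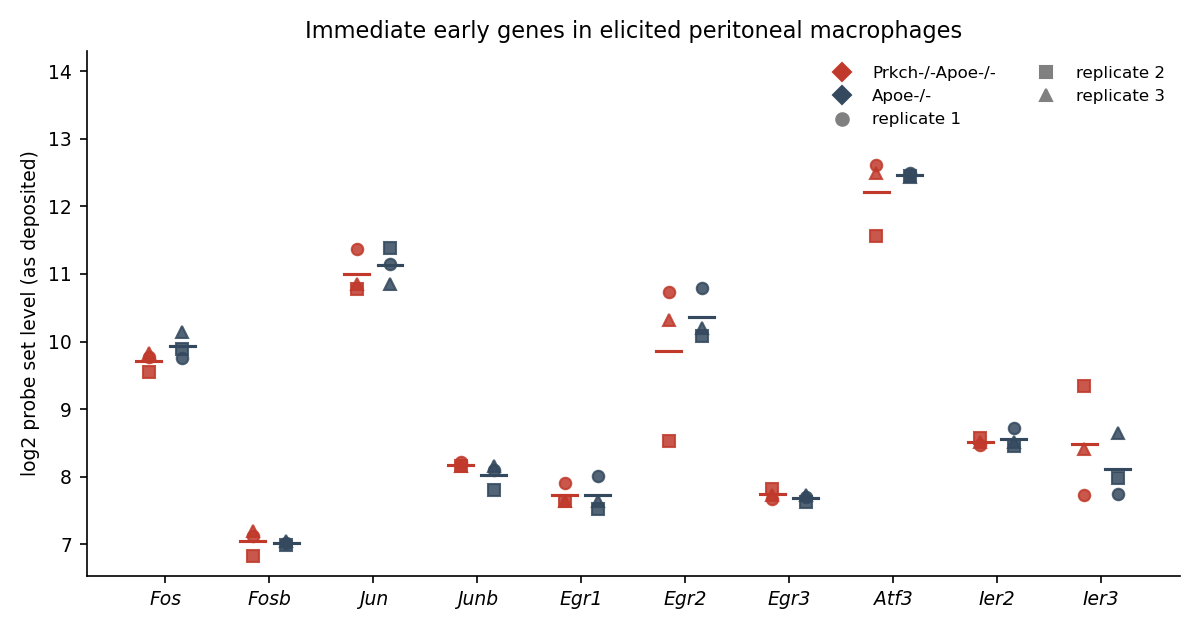
Deposited log2 probe set level (vertical axis) of the 10 genes in elicited peritoneal macrophages, Prkch-/-Apoe-/- left and Apoe-/- right for each gene; points are single arrays with a shape per replicate and lines are means of 3 arrays. Prkch-/-Apoe-/- replicate 2 (squares) is at 8.52 for Egr2, 11.56 for Atf3 and 9.33 for Ier3, away from the other 5 arrays.

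Read against all genes, 0 of the 10 were called in macrophages at a Benjamini-Hochberg adjusted p under 0.05 by limma, with 0 of 15039 genes called (0%). At an unadjusted p under 0.05 limma passed 0 of the 10 and 105 of 15039 genes (0.698%), and 205 genes in a fit with the batch as a block. Genotypes did not overlap for 0 of the 10, against 0.652% of genes higher and 1.6% lower in Prkch-/-Apoe-/- macrophages. Values that are equal between genotypes in batch 2 count as overlap, which lowers both the shares and the count of the 10. The median difference of the 10 was -0.02 and that of all genes tested -0.04. Of the 10, 5 had a positive difference, where 36.5% of all genes tested did. What the p-values measure is the spread between arrays that the labels call biological replicates. In the fit without a batch term that spread also holds any offset between the batches, which are uneven between genotypes. It also holds the equal values of batch 2, so it is not a spread between mice alone.

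The spread within genotypes separated the 10 genes more than the genotype did. The SD within genotypes was 0.87 for Egr2, 0.66 for Ier3, 0.41 for Atf3 and 0.30 for Jun, at the 99.5th, 98.5th, 94.7th and 87.3rd percentile of all genes tested. That of Egr3 was 0.06, at the 10.8th percentile. Without Prkch-/-Apoe-/- replicate 2, Egr2 stayed at the 95.6th percentile and Ier3 at the 99.0th, whereas Atf3 was at the 9.18th. Each genotype held arrays of both batches, so these SDs include any offset between batches. For Ier3 every batch 2 array read above every batch 1 array. Equal values in batch 2 also lower the SDs of many of the genes that the percentiles refer to. Prkch-/-Apoe-/- replicate 2 was the lowest macrophage array for 5 of the 10 genes (Fos, Fosb, Jun, Egr2 and Atf3) and the highest for 2 (Egr3 and Ier3). Over all genes tested that array was the lowest for 21.8% and the highest for 12.3%. A gene with equal values at an end was counted there for no array. The many equal values of batch 2 thus lower these shares, and the counts of the 10 cannot be set plainly against them.

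Markers of several cell types moved with this array as well. The median level of 5 B cell markers was 9.53 on Prkch-/-Apoe-/- replicate 2, 7.19 and 7.62 on the other Prkch-/-Apoe-/- arrays and 7.47 to 8.72 on Apoe-/- arrays. That of 6 fibroblast markers was 6.90 there, 8.81 and 7.85 on the other Prkch-/-Apoe-/- arrays and 8.03 to 9.05 on Apoe-/- arrays. That of 8 macrophage markers was 12.39 there, 12.03 and 11.96 on the other Prkch-/-Apoe-/- arrays and 11.92 to 12.03 on Apoe-/- arrays. Summed on the linear scale, the B cell markers ran from 1139 to 3970 in Prkch-/-Apoe-/- macrophages and from 1181 to 2040 in Apoe-/- macrophages, and the fibroblast markers from 750.0 to 2859 in Prkch-/-Apoe-/- macrophages and from 1595 to 3160 in Apoe-/- macrophages. The part of these cells in the levels of Egr2, Atf3 and Ier3 was not tested.

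The liver comparison asks the same of re-fed males on high-fat diet. None of the 10 genes passed the test there either. On both Prkch-/-Apoe-/- arrays Fos read above, and Egr1, Egr3 and Junb below, both Apoe-/- arrays, with mean differences between -0.29 and 0.17 log2 units. Of all liver genes tested, 11.8% lay above and 18% below in the same way, so such a count does not set the 10 genes apart. A pair of arrays per genotype gives wide intervals, and those of all 10 genes include 0.

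Fos read 6.53 and 6.55 in Prkch-/-Apoe-/- livers and 6.36 and 6.38 in Apoe-/- livers. The arrays within a genotype were nearly equal and the genotypes did not overlap. The Fos difference was 0.17 ± 0.13 (SE, n = 2 and 2; limma, Benjamini-Hochberg adjusted p = 1.00), with the SE moderated by limma towards that of all genes. Fosb read 6.15 and 5.68 in Prkch-/-Apoe-/- livers and 5.76 and 5.71 in Apoe-/- livers, so its difference of 0.18 ± 0.17 rested on Prkch-/-Apoe-/- replicate 1. Jun read 8.22 and 8.75 in Prkch-/-Apoe-/- livers and 8.34 and 8.27 in Apoe-/- livers, where the high array was Prkch-/-Apoe-/- replicate 2. The Jun difference was 0.18 ± 0.19, and -0.09 without that array. Junb read 6.96 on both Prkch-/-Apoe-/- arrays, against 7.15 and 7.09 in Apoe-/- livers, a difference of -0.16 ± 0.13. Atf3 lay between 6.80 and 6.84 in Prkch-/-Apoe-/- livers and between 6.76 and 6.88 in Apoe-/- livers, so the Prkch-/-Apoe-/- arrays lay inside the range of the Apoe-/- arrays.

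Egr1 read 6.11 and 6.43 in Prkch-/-Apoe-/- livers and 6.59 and 6.53 in Apoe-/- livers. Both Prkch-/-Apoe-/- arrays lay below both Apoe-/- arrays, replicate 1 by more. The Egr1 difference was the widest of the 10 in liver at -0.29 ± 0.15 (95% interval -0.64 to 0.06; limma, unadjusted p = 0.0900, Benjamini-Hochberg adjusted p = 1.00), and it was -0.13 without Prkch-/-Apoe-/- replicate 1. Egr3 read 6.91 and 7.05 in Prkch-/-Apoe-/- livers and 7.19 and 7.15 in Apoe-/- livers, a difference of -0.19 ± 0.13 that was -0.12 without Prkch-/-Apoe-/- replicate 1. Egr2 read 5.56 and 6.07 in Prkch-/-Apoe-/- livers and 5.96 and 6.13 in Apoe-/- livers. Its low array was Prkch-/-Apoe-/- replicate 1, and the difference was -0.23 ± 0.18 with it and 0.03 without it. Ier2 read 7.12 and 6.98 in Prkch-/-Apoe-/- livers and 6.86 and 7.04 in Apoe-/- livers, and Ier3 5.99 and 5.67 in Prkch-/-Apoe-/- livers and 6.09 and 5.86 in Apoe-/- livers. The genotypes overlapped for both, with differences of 0.11 ± 0.14 for Ier2 (0.02 without Apoe-/- replicate 1) and -0.14 ± 0.16 for Ier3.

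**Figure D2:**
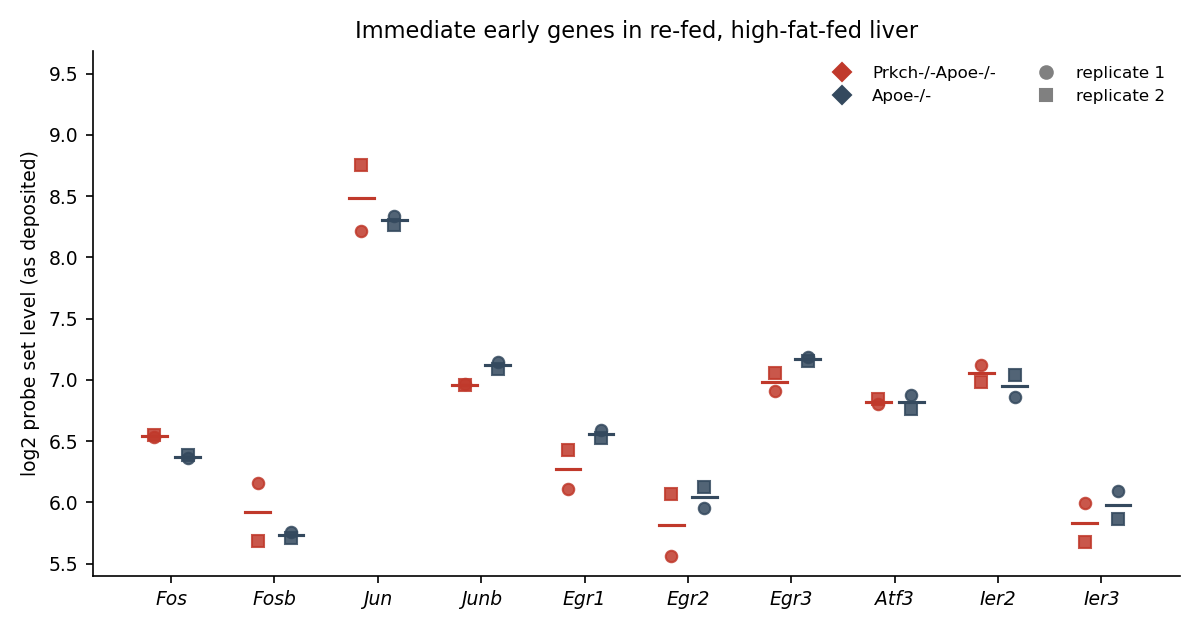
Deposited log2 probe set level (vertical axis) of the 10 genes in liver, Prkch-/-Apoe-/- left and Apoe-/- right for each gene; points are single arrays with a shape per replicate and lines are means of 2 arrays. The genotypes do not overlap for Fos, Junb, Egr1 and Egr3, as for 11.8% (Prkch-/-Apoe-/- higher) and 18% (lower) of all liver genes tested. Prkch-/-Apoe-/- replicate 1 (circle) is at 5.56 for Egr2 and 6.15 for Fosb.

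Over all liver genes, limma called 1 of 15942 at a Benjamini-Hochberg adjusted p under 0.05 (0.00627%) and 0 of the 10. The called gene was Idi1, an enzyme of sterol synthesis, which is named after its values were seen. At an unadjusted p under 0.05 limma passed 684 genes (4.29%) and 0 of the 10. Genotypes did not overlap for 11.8% of genes with Prkch-/-Apoe-/- higher and 18% with Prkch-/-Apoe-/- lower, against 1 and 3 of the 10. The median difference of the 10 was -0.07 and that of all genes tested -0.02. Prkch-/-Apoe-/- replicate 1 was the lowest liver array for 4 of the 10 genes and the highest for 2, where it was the lowest for 35.3% and the highest for 24.8% of all genes tested. Summed macrophage markers ran from 3174 to 3721 in Prkch-/-Apoe-/- livers and from 4207 to 5691 in Apoe-/- livers, and summed Kupffer cell markers from 3198 to 4687 in Prkch-/-Apoe-/- livers and from 4980 to 6340 in Apoe-/- livers. The median level of the 5 Kupffer cell markers overlapped, at 9.83 and 8.87 in Prkch-/-Apoe-/- livers and 9.48 and 9.83 in Apoe-/- livers, while that of the 8 macrophage markers was 8.17 and 8.18 in Prkch-/-Apoe-/- livers and 8.26 and 8.50 in Apoe-/- livers. Their part in the values of these genes was not tested.

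A fit over all 10 arrays of macrophages and liver tested whether the difference between genotypes differed between these settings, in which tissue, sex, diet and age change together and cannot be told apart. This fit took a shared spread for both tissues, although the SD within genotypes of Egr2 was 0.87 in macrophages and 0.27 in liver. It held no term for the macrophage batches. It called 0 of 16363 genes (0%), and 345 at an unadjusted p under 0.05, where 0 of the 10 genes lay. For Fos the macrophage difference minus the liver difference was -0.38 (95% interval -0.81 to 0.04; limma, Benjamini-Hochberg adjusted p = 1.00). For Junb it was 0.32 (-0.06 to 0.69) and for Egr1 0.30 (-0.22 to 0.81). The widest interval was that of Egr2, from -1.92 to 1.38, so that for Egr2 a difference between the settings of up to a log2 unit in either direction was within the error.

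**Figure D3:**
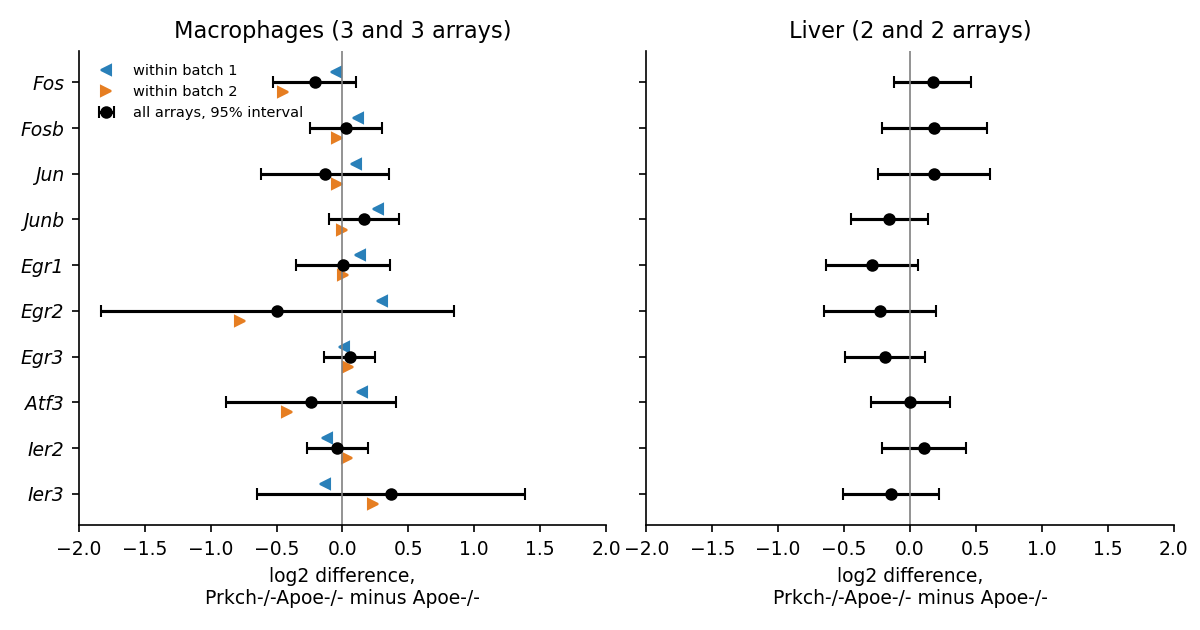
Difference in log2 level, Prkch-/-Apoe-/- minus Apoe-/- (horizontal axis), of the 10 genes in macrophages (left) and liver (right); black points with bars are the difference over all arrays with its 95% interval from limma, and coloured triangles are differences within each macrophage batch. All intervals include 0, and for Egr2 the batches lie at 0.30 and -0.78.

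In the aorta each genotype was 1 array of pooled RNA, so its differences have no replicate check. Ier3 showed the widest difference of the genes bright enough to be kept, with a signal of 108 in the Prkch-/-Apoe-/- pool and 204 in the Apoe-/- pool. After adding 16 to each signal and taking log2, a scale on which dim genes seem to differ less than they do, that is -0.82, and 0.789% of the 7098 genes kept had a lower difference. None of the 10 reached 2-fold on that scale, against 0.873% of genes kept with the Prkch-/-Apoe-/- pool higher and 0.394% with it lower.

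Among the AP-1 genes, Fos was at 219 in the Prkch-/-Apoe-/- pool and 217 in the Apoe-/- pool. Jun was at 351 in the Prkch-/-Apoe-/- pool and 422 in the Apoe-/- pool on its brighter probe set, and on its dimmer one at 179 in the Prkch-/-Apoe-/- pool and 214 in the Apoe-/- pool. Both Jun probe sets were lower in the Prkch-/-Apoe-/- pool by a like amount, -0.25 and -0.24. Atf3 was at 88.6 in the Prkch-/-Apoe-/- pool and 114 in the Apoe-/- pool (-0.31), and Junb at 47.9 in the Prkch-/-Apoe-/- pool and 40.1 in the Apoe-/- pool (0.19). Egr1 was at 271 in the Prkch-/-Apoe-/- pool and 289 in the Apoe-/- pool (-0.09). Ier2 was at 139 in the Prkch-/-Apoe-/- pool and 127 in the Apoe-/- pool (0.12). Apart from Ier3, then, the kept genes differed by between -0.31 and 0.19 between the pools.

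The remaining 3 genes lay on both arrays below the filter, a signal of 32.6, which was the median over probe sets of the brighter of both arrays' values. Fosb was at 11.3 in the Prkch-/-Apoe-/- pool and 11.2 in the Apoe-/- pool, and Egr3 at 6.41 in the Prkch-/-Apoe-/- pool and 14.1 in the Apoe-/- pool. The Egr2 probe sets were at 25.4 and 29.3 in the Prkch-/-Apoe-/- pool and at 9.38 and 15.5 in the Apoe-/- pool. Over the 7 genes kept the median difference was -0.09, and -0.01 over all genes kept. Summed marker signals also differed between the pools. For 5 B cell markers they were 754 in the Prkch-/-Apoe-/- pool and 158 in the Apoe-/- pool. They were 1075 in the Prkch-/-Apoe-/- pool and 39.0 in the Apoe-/- pool for 5 adrenal cortex markers, and 6035 in the Prkch-/-Apoe-/- pool and 10495 in the Apoe-/- pool for 7 skeletal muscle markers. For 6 smooth muscle markers they were 4520 in the Prkch-/-Apoe-/- pool and 3659 in the Apoe-/- pool. Whether they had a part in the level of Ier3 was not tested.

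**Figure D4:**
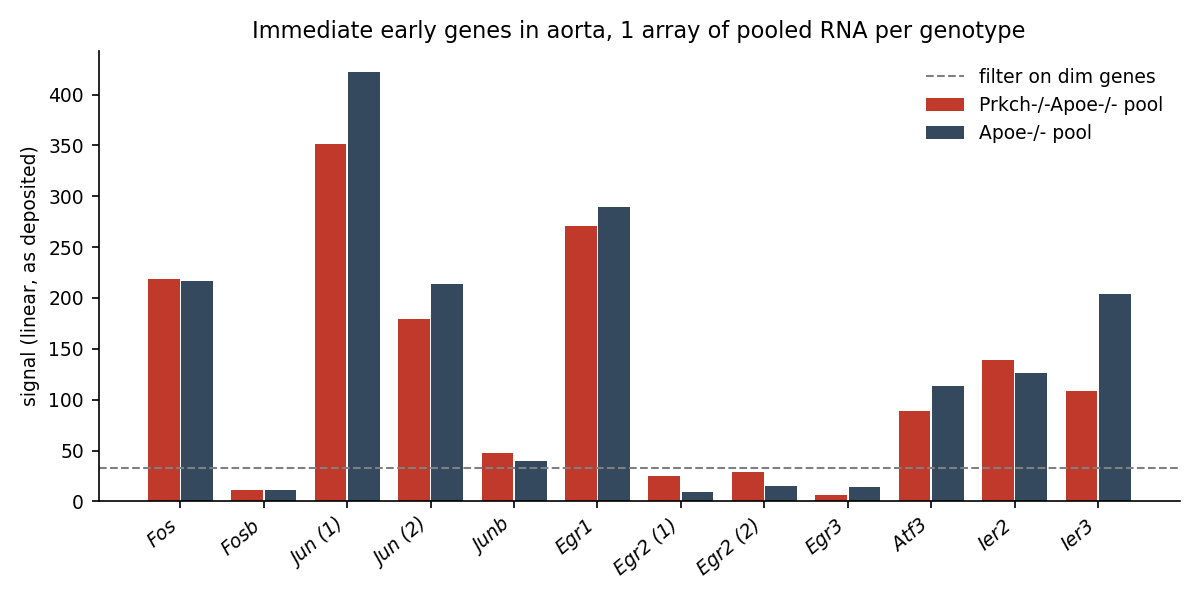
Deposited linear signal (vertical axis, from 0) of the 12 probe sets in aorta, Prkch-/-Apoe-/- pool left and Apoe-/- pool right for each; a number marks the probe sets of a gene with 2, bars are single arrays without error, and the dashed line is the filter at 32.6. Ier3 is at 108 in the Prkch-/-Apoe-/- pool and 204 in the Apoe-/- pool, while Fos is at 219 in the Prkch-/-Apoe-/- pool and 217 in the Apoe-/- pool.

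The place of each gene on its own array was compared between tissues as the percentile of its probe set among all probe sets of that array, since the log2 values of macrophages and liver may have been normalized apart. Probes differ in brightness, so different genes are not compared with each other. The aorta array has other probes, so its percentiles are listed and drawn beside the others but not compared with them. Atf3 lay at the 97.0th to 99.0th percentile in macrophages, the 64.5th to 66.2nd in liver and the 71.8th to 76.3rd in aorta. Fos lay at the 86.8th to 91.2nd percentile in macrophages, the 58.1st to 61.7th in liver and the 85.9th to 86.4th in aorta. For both genes every macrophage array lay above every liver array.

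Egr2 ranged from the 76.3rd to the 94.3rd percentile in macrophages, its lowest value being that of Prkch-/-Apoe-/- replicate 2, and from the 42.6th to the 54.1st in liver. Its brighter aorta probe set lay at the 40.4th to 49.6th percentile of the aorta arrays. Egr1 lay at the 63.0th to 68.8th percentile in macrophages and the 53.4th to 61.9th in liver. Its aorta probe set lay at the 88.6th to 88.9th. Egr3 overlapped between macrophages (64.3rd to 67.6th percentile) and liver (67.1st to 70.7th), as did Junb (66.7th to 72.4th and 67.6th to 70.2nd). The aorta probe set of Egr3 lay at the 24.0th to 39.0th percentile. Jun was at the 94.4th to 96.5th percentile in macrophages, the 83.6th to 87.4th in liver and, on its brighter probe set, the 91.2nd to 92.3rd in aorta. Tissue, sex, diet and handling change together in these comparisons and cannot be told apart.

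**Figure D5:**
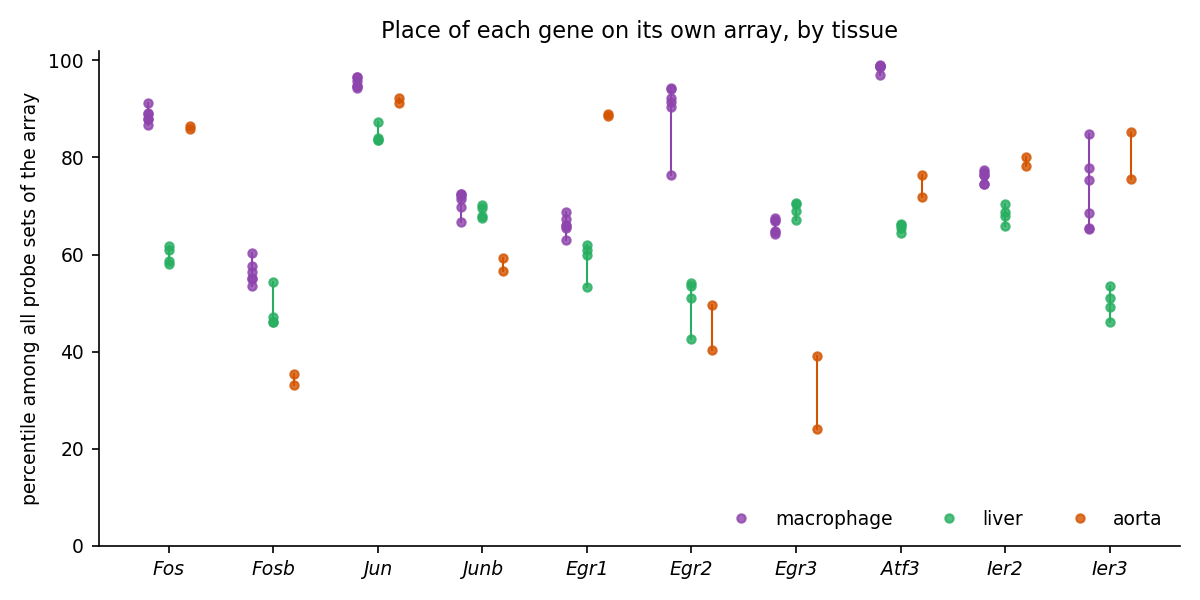
Percentile of each gene's probe set among all probe sets of the same array (vertical axis), for 6 macrophage, 4 liver and 2 aorta arrays, with both genotypes together; points are arrays and lines join the lowest and highest of a tissue. Atf3 and Fos in macrophages lie above all liver arrays, and Egr2 spreads from the 76.3rd to the 94.3rd percentile in macrophages. The aorta array has other probes, so its points are not to be compared with those of the other tissues.

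The rest of the pathway was read from 6 lists. In macrophages limma called 0 genes of any list, and 1 of 97 distinct genes kept had an unadjusted p under 0.05, against 0.698% of all genes tested. That gene was Gadd45a, a growth arrest gene of the effector list, at 9.26, 8.70 and 9.50 in Prkch-/-Apoe-/- macrophages and 9.65, 9.65 and 10.13 in Apoe-/- macrophages. Its difference was -0.66 ± 0.23 (limma, unadjusted p = 0.0271, Benjamini-Hochberg adjusted p = 1.00), with -0.39 and -1.03 within batches 1 and 2. The partners of AP-1 (17 genes kept) had a median difference of -0.01, with Batf at -0.25, Cebpd at 0.19, Cebpb at 0.33 and Jund at -0.11. The other immediate early transcription factors (16 genes) had a median of 0.06, with Klf4 at 0.23, Klf10 at 0.13, Klf2 at 0.40 and Maff at -0.20.

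The feedback regulators (22 genes), which damp the response, had a median of -0.03 in macrophages, and the effector genes (22 genes) one of -0.07. Nab1, a co-repressor of Egr proteins, differed by 0.13, and the MAP kinase phosphatases Dusp8, Dusp2 and Dusp10 by -0.13, -0.17 and -0.20. Of the effectors, the matrix proteins Ccn1 and Ccn2 differed by -0.28 and -0.12, and Sertad1 by -0.23. SRF, its partners and the MAP kinases above it (14 genes) had a median of 0.03, with Mrtfa, a co-activator of SRF, at -0.27, Mapk9 at 0.10, Map2k1 at 0.10 and Map2k2 at -0.16. The heat shock genes (7 genes), which respond to handling and stress, had a median of -0.00, with Hspb1 at -0.10, Hspa8 at 0.09, Hsph1 at -0.11 and Hspa1a at 0.04. The median difference of all genes tested was -0.04.

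In liver limma called 0 genes of any list as well. The effector genes had the lowest median of the 6 lists, -0.16 with 18 of 22 genes negative, where the median of all genes was -0.02 and 42.8% of genes were positive. Among them the clock gene Per1 differed by -0.55, Ccn2 by -0.35, the GTPase Gem by -0.27 and Rhob by -0.23. The heat shock genes had a median of -0.15 with 6 of 7 negative, and the named ones were Hsp90aa1 at 0.22, Dnajb1 at -0.23, Bag3 at -0.15 and Hsph1 at -0.24. The partners of AP-1 had a median of -0.06 with 13 of 17 negative, and the Fos relatives Fosl1 and Fosl2 differed by -0.36 and -0.32, Jdp2 by -0.28 and Cebpb by -0.44. Both Prkch-/-Apoe-/- arrays lay below both Apoe-/- arrays for 5 of these 17 genes, Fosl1, Fosl2 and Jdp2 among them, and above for 0, against 18% and 11.8% of all liver genes.

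The other immediate early transcription factors in liver (15 genes kept) had a median of 0.00, with Csrnp1 at -0.41, Klf4 at 0.33, Ier5l at 0.25 and Hes1 at -0.28. Of the feedback regulators (22 genes, median -0.06), the RNA-binding protein Zfp36l2 differed by -0.49 and had the smallest p of any list (limma, unadjusted p = 0.00805, Benjamini-Hochberg adjusted p = 0.989). The NF-kB inhibitors Tnfaip3 and Nfkbia differed by -0.59 and -0.45, and the phosphatase Dusp6 by 0.36. SRF and the kinases had a median of -0.09, with Map2k1 at -0.27, Mrtfb at -0.20, Mapk8 at -0.24 and Elk3 at -0.17. An unadjusted p under 0.05 was reached by 2 AP-1 partners, 2 other transcription factors, 4 feedback regulators and 1 effector gene in liver, against 4.29% of all genes tested.

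In the aorta 0 genes of any list reached 2-fold. The effector genes had a median of 0.17 over 17 genes kept, with Ccn2 at 1227 in the Prkch-/-Apoe-/- pool and 784 in the Apoe-/- pool (0.64), and with Gem at 0.49, Ccn1 at 0.48 and Phlda1 at 0.42. The other immediate early transcription factors had a median of -0.16 over 11 genes, with Klf4 at 345 in the Prkch-/-Apoe-/- pool and 516 in the Apoe-/- pool (-0.56), and with Nr4a2 at -0.49, Klf2 at -0.43 and Bhlhe40 at -0.39. The feedback regulators also had a median of -0.16, over 15 genes, with Dusp10 at -0.66, Dusp6 at -0.54, Zfp36l2 at -0.50 and Btg2 at -0.45. The sign of the aorta effector median thus differed from that of the transcription factor and feedback medians, without replicates.

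Of the AP-1 partners in aorta (11 genes, median -0.09), Batf differed by 0.63, at a dim signal of 38.2 in the Prkch-/-Apoe-/- pool and 19.0 in the Apoe-/- pool, and Jund, Mafg and Atf2 by -0.49, -0.41 and -0.34. Srf itself was at 41.0 in the Prkch-/-Apoe-/- pool and 60.3 in the Apoe-/- pool (-0.42), with Mapk14 at -0.27, Rps6ka3 at -0.19 and Map2k4 at 0.16 in a list with a median of -0.11 over 11 genes. Of 8 heat shock genes (median 0.07), Hspa1b and Hspa1a differed by 0.48 and 0.33, and Bag3 and Hspb1 by -0.26 and -0.23.

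Profiles like those of Fos and Egr1 were sought over the 10 macrophage and liver arrays, each profile taken as the log2 value minus the gene's mean within the tissue, among 14617 genes kept in both. Nearest to Fos by root mean square difference were Malsu1 (0.07 log2 units), Dynlt3, Creb3l1, Cracr2b and Pold3 (0.08 to 0.09), where the Fos profile itself had a root mean square of 0.15. Nearest to Egr1 were Atat1 (0.05), Brms1l, Lrrc8c, Lmcd1 and Taz, as the platform annotation names it (0.06 to 0.07), where the Egr1 profile had 0.18. No other of the 10 immediate early genes could enter these lists, since they were drawn from the remaining genes. Fos and Prkch both lie on chromosome 12.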

How the data were processed

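Per the submitters' processing notes, the authors used Affymetrix Expression Console, with neither version nor algorithm given in the sources used here. For macrophages and liver, the deposited values were read as log2 probe set summaries that the authors had normalized. For the aorta, the deposited values were read as intensity on a linear scale, since the trimmed mean was 100.04 on both arrays, which points to scaling by the authors. For arrays, the number of arrays limits the precision.

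A gene was represented by its probe set of highest mean among those with 1 symbol, and genes with a mean under the 30th percentile over probe sets were not tested. In the aorta a gene was kept where its brighter array reached the median over probe sets of the brighter of both values. Each of macrophages and liver was fitted alone with limma 3.58.1 in R 4.3.3 (lmFit, eBayes), with Benjamini-Hochberg adjustment over all genes kept and a threshold of 0.05. Macrophage batches were found from identical deposited values, 20 or more joining 2 arrays. The fit was tested on simulated data, but the settings and outcome are not given here, so nothing is drawn from that test.

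The members, lists and tests were chosen with earlier results of these data known. All 10 members and Prkch were named, up to 4 genes of each list by the smallest p or, in aorta, the widest difference, and the 5 nearest profiles for Fos and Egr1, leaving out predicted genes, pseudogenes, small RNAs and chemosensory receptors. Alternatives covered normalization, filter, probe set choice, prior variance, replicate and batch blocks, pseudocount and each array left out. RefSeq promoter windows (GRCm38.p6) were matched by symbol.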

Additional observations from a re-analysis of the deposited data

How the results depend on the processing

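Under all alternatives run, 0 of the 10 genes were called in macrophages or liver, 0 in the test between these settings, and 0 reached 2-fold in the aorta among genes kept. The lowest Benjamini-Hochberg adjusted p of any member by limma was 0.570 in macrophages and 0.424 in liver. Fos, Junb and Egr3 in macrophages (14 alternatives) and Fos, Junb, Egr1, Egr3 and Ier2 in liver (11) kept their direction, though 1 array left out took them to between -0.30 and -0.10, 0.052 and 0.23, and 0.014 and 0.087 in macrophages, and to between 0.16 and 0.18, -0.19 and -0.13, -0.45 and -0.13, -0.26 and -0.12, and 0.015 and 0.19 in liver, in that order of genes. With the batch as a block macrophage Egr2 was -0.24, Atf3 -0.14 and Ier3 0.049, and 205 genes had an unadjusted p under 0.05, against 105 without it. The other directions did not hold: leaving out 1 array gave ranges of -0.94 to 0.17 for Egr2, -0.44 to 0.092 for Atf3, -0.052 to 0.75 for Ier3, -0.095 to 0.038 for Ier2, -0.097 to 0.15 for Egr1 and -0.046 to 0.14 for Fosb in macrophages, and of -0.052 to 0.42 for Fosb, -0.086 to 0.45 for Jun, -0.48 to 0.025 for Egr2, -0.053 to 0.058 for Atf3 and -0.30 to 0.014 for Ier3 in liver. Macrophage Jun was 0.030 with the batch as a block, and between -0.32 and -0.0018 with 1 array left out. The count of liver genes called, 1 as reported, was 0 with quantile normalization, without the filter, with a trended prior and with all 10 arrays in 1 fit, 23 with the replicate block, and 0 to 39 with 1 array left out (39 without Prkch-/-Apoe-/- replicate 2, 3 without Apoe-/- replicate 2, 0 without either replicate 1), where a genotype with 1 array left takes its spread from the other genotype; the cause was not tested. Deviations of macrophage arrays with the same number, which also share an age, correlated at 0.40, 0.03 and 0.50. Those of macrophage arrays with unlike numbers correlated at -0.46 to 0.19. The pairs at 0.40 and 0.50 each lay within a batch and the pair at 0.03 across batches, so a pairing was not tested apart from the batch. In liver, with 2 arrays per genotype, centring leaves only 0.11 for the same number and -0.11 for unlike numbers. The main fits took no pairs, and the replicate block called 0 macrophage genes. Dividing the aorta arrays by their medians moved Fos to -0.09 and Ier3 to -0.92, and a pseudocount of 1 moved the dim Egr3 to -1.03. No interval can be given for the aorta, with 1 array per genotype.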
